A study of Mus musculus with 272 samples.

Results

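The genes described here encode the proteins of the mitochondrial ribosome. They were taken from a CPM table, in which the reads of each gene are divided by the total of the library, over mouse oocytes and preimplantation embryos, as every gene whose symbol is Mrpl or Mrps followed by a number, where L stands for the large and S for the small ribosomal subunit. The rule found 77 genes of the 15854 symbols in the table, 48 of the large and 29 of the small subunit by their symbols, and left out 1 pseudogene, Mrpl23-ps1. By background knowledge of the complex, 46 of the 77 proteins have a bacterial homolog and 30 are specific to mitochondria. Mrps36, which by later work is a subunit of the oxoglutarate dehydrogenase complex, was put in neither class. Mrps30 and Mrps18a are counted as small-subunit genes by their symbols, although structures place their proteins in the large subunit.

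Mitochondria carry their own small genome and translate its messages, all of them for the respiratory chain and the ATP synthase, on a ribosome of bacterial ancestry. All proteins of this mitoribosome are encoded in the nucleus, translated on cytosolic ribosomes and imported, and many of them have no bacterial counterpart. Fully grown mouse oocytes stop transcription before meiotic maturation, run on stored messages through the metaphase II (MII) arrest and fertilization, and the embryo takes up its own transcription mainly at the 2-cell stage.

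The study sequenced RNA at 8 stages: germinal vesicle (GV) oocytes, MII oocytes, zygotes, 2-cell, 4-cell and 8-cell embryos, morulae and blastocysts. Each stage had 4 transcriptome libraries from pools of 20 oocytes or embryos, and 3 sucrose gradients, each loaded with lysate of about 100 oocytes or embryos and collected as 10 fractions, which gives 32 transcriptome and 240 fraction libraries. Lysates were made with cycloheximide, which holds ribosomes on the message, so that position along the gradient follows the load of cytosolic ribosomes on each transcript. The labels tell the groups apart by stage and fraction alone and name neither strain nor age. The labels count pools and gradients as separate samples and do not say that they came from separate animals, so p-values measure the spread between these pools.

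Depth was 11.2 to 24.3 M reads per transcriptome, 0.996 to 43.2 M per fraction from 2 to 10, and as low as 0.0102 M in fraction 1. A value of 0 allows up to 3 reads, which is 0.124 to 0.267 CPM in the transcriptomes, and this limit covers counting error only. Stage markers were checked: 5 oocyte markers summed to 16512 to 19153 CPM in GV and 6.27 to 11 CPM in blastocyst libraries, 5 markers of the 2-cell embryo to 3074 to 4247 CPM in 2-cell libraries, and 7 blastocyst markers to 2663 to 3711 CPM in blastocysts. Gata4, 1 of these 7, went the other way, with a mean of 1.37 CPM in blastocysts and 24.8 at the 4-cell stage. Of 12 cumulus and granulosa cell markers 4 are in the table, with a sum of 40.4 to 75.5 CPM over the GV, MII and zygote libraries and of 0.171 to 20.6 CPM over the later ones. Most of the early sum was Cyp19a1, with means of 38.0 CPM at GV, 62.7 at MII and 53.8 in zygotes. Fshr and Inha had means of 2.45 and 1.40 CPM at GV. Kitl was highest at the 4-cell stage, with a mean of 10.6 CPM, against 2.84 at GV. Of 5 fibroblast and blood markers only Hba-a1, a globin gene, is in the table: it was 0 in all GV, MII and zygote libraries, 33.2 to 53.2 CPM at the 2-cell stage, 36.1 to 158.7 at the 4-cell stage and 1.75 to 3.13 in blastocysts, and the part of such cells in the results below was not tested. The nuclear 18S ribosomal RNA took 0.0123 to 11.2% of transcriptome reads, and 3.84 to 11.2% in blastocysts. A CPM is a share of a library, and the libraries were made from polyadenylated RNA of whole pools, so fewer cells, less RNA per cell and a shorter poly(A) tail cannot be told apart.

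In the transcriptomes the mitoribosome messages were abundant in the GV oocyte, low from MII to the 2-cell stage, and highest from the 4-cell stage on. Summed over the 77 genes, the level in the transcriptomes was 7440 ± 435 CPM (SD, n = 4 pools for this and each following sum) at GV, 1922 ± 57.2 at MII, 2545 ± 101 in zygotes and 2619 ± 188 in 2-cell embryos. It was then 11155 ± 588 CPM at the 4-cell stage, 13002 ± 456 at the 8-cell stage, 13749 ± 925 in morulae and 14716 ± 823 in blastocysts. The GV pools (6980 to 7993 CPM) lay between the early and the late stages and overlapped neither. Large-subunit genes summed to 4383 CPM at GV, 1250 at MII, 1638 at the 2-cell and 7741 at the 4-cell stage, and small-subunit genes to 3057, 672, 980 and 3414 CPM. The 80 cytosolic ribosomal protein genes in the same libraries summed to 7879 ± 617 CPM at GV, 1161 ± 154 at MII, 1456 ± 86.8 in zygotes, 4710 ± 279 at the 2-cell and 98025 ± 2721 at the 4-cell stage. Both families fell at MII, and the mitochondrial sum changed by less than the spread of its pools between zygote and 2-cell, where the cytosolic sums of all pools were higher at the 2-cell stage. The gradient fractions, described below, gave higher sums of the 77 genes at these early stages. Their means were 7587 to 20421 CPM at GV, 4373 to 19679 at MII, 3842 to 11245 in zygotes and 2683 to 4878 at the 2-cell stage. All lie above the transcriptome mean of their stage, and the cause was not tested.

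**Figure D1:**
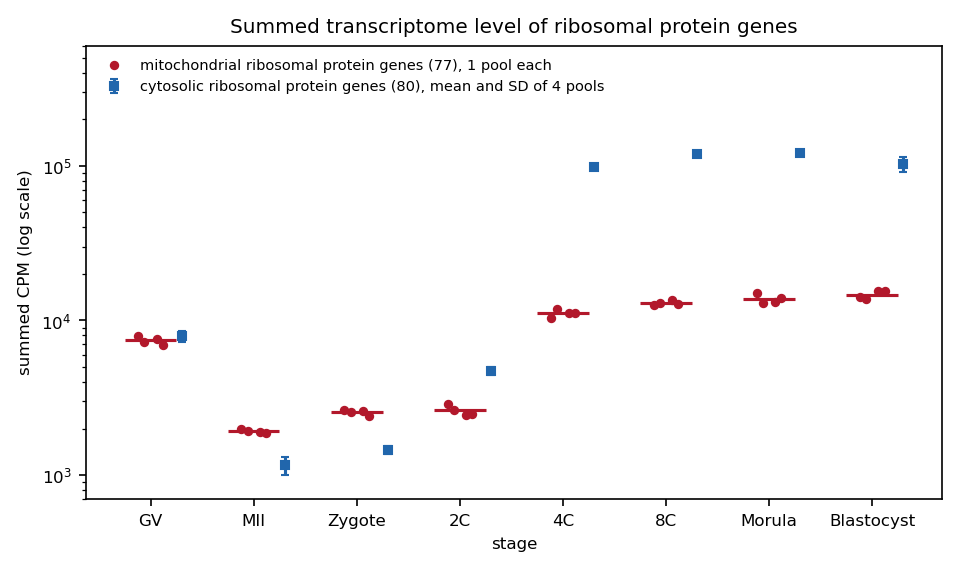
Summed CPM of the 77 mitochondrial and the 80 cytosolic ribosomal protein genes (log axis) in each transcriptome pool of the 8 stages. Red points are the mitochondrial sums of single pools with their mean as a line, and blue squares the cytosolic mean and SD of 4 pools. The mitochondrial sum falls from 7440 CPM at GV to 1922 at MII and is 11155 CPM at the 4-cell stage.

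The median gene stood at 63.9 CPM at GV, 9.96 at MII, 16.0 in zygotes, 20.3 at the 2-cell and 110.3 at the 4-cell stage, and at 149.6 CPM in blastocysts. Genes with a mean under 10 CPM numbered 4 at GV, 39 at MII, 29 in zygotes and 22 at the 2-cell stage, and 0 from the 4-cell stage on. The highest stage mean was that of the blastocyst for 35 genes, the 8-cell stage for 14, the morula for 12, the 4-cell stage for 4 and the GV oocyte for 12. The lowest was that of MII for 48 genes and of the 2-cell stage for 19. Scaled to transcript length, so that genes can be compared, the highest means over the 32 libraries were those of Mrpl34 (457 CPM per kb), Mrpl22 (446) and Mrpl42 (270), and the lowest those of Mrpl19 (6.31), Mrps5 (8.68) and Mrpl1 (14.3). Unscaled, the largest means over these libraries belonged to Mrpl22 (322.1 CPM), Mrpl34 (277.6) and Mrpl12 (261.7) and the smallest to Mrps34 (18.8), Mrpl10 (28.2) and Mrps11 (31.4).

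The proteins act in a fixed stoichiometry, but their messages did not stand in a fixed order. At GV the highest levels per kb were those of Mrps36, Mrps22 and Mrpl22, at MII those of Mrps36, Mrpl18 and Mrpl9, and at the 4-cell stage those of Mrpl34, Mrpl22 and Mrpl20. The level per kb ranged from 0.120 to 333.6 CPM per kb over the 77 genes at GV and from 5.53 to 882 at the 4-cell stage. Mrps36, the highest at GV and MII, was put in neither class of mitoribosome proteins, so this stoichiometry does not cover it. After it at GV came Mrps22 with 297.5 CPM per kb. No order between neighbouring genes was tested.

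**Figure D2:**
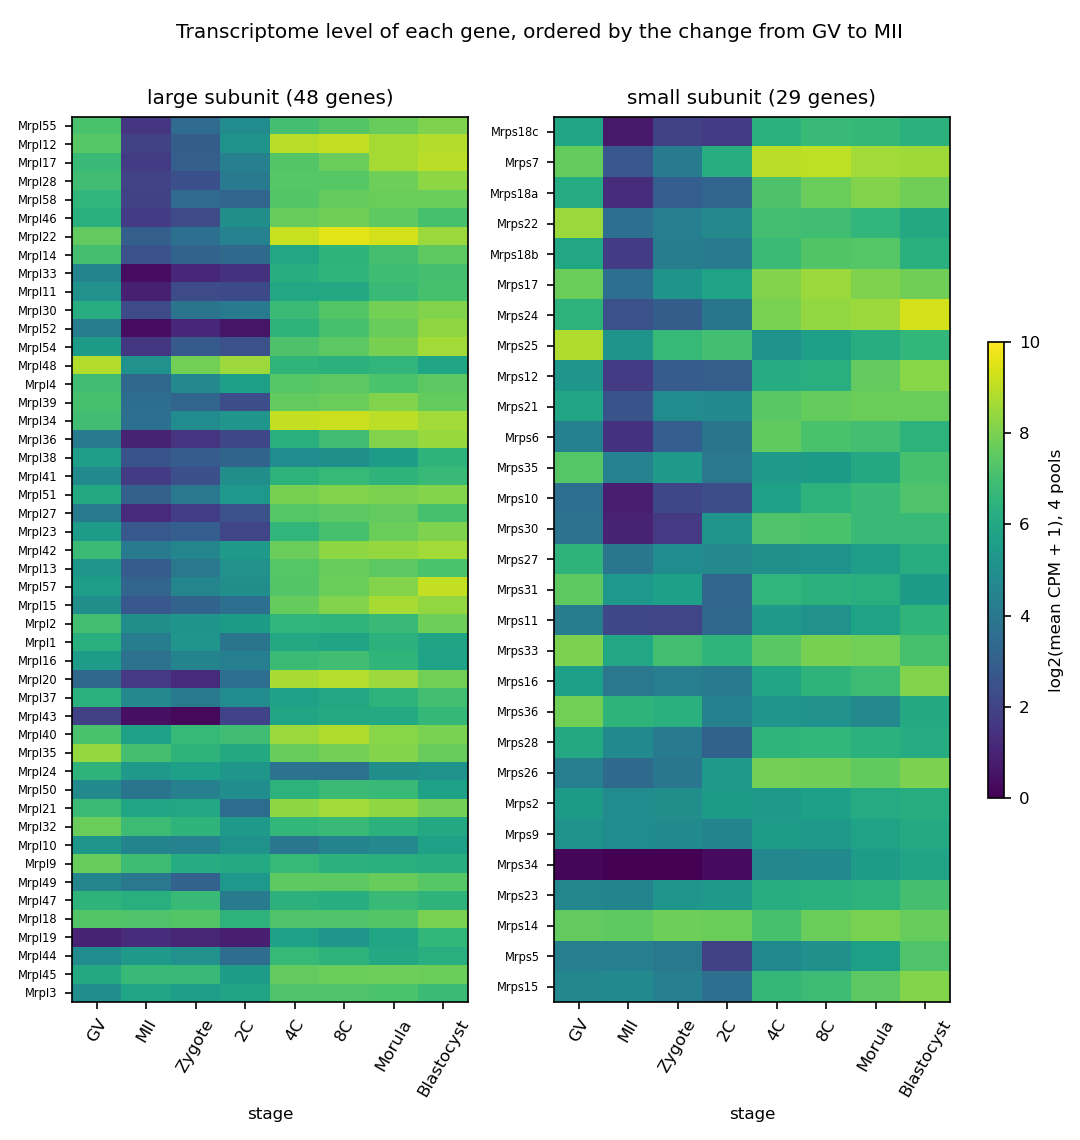
Level, log2(mean CPM + 1), of each of the 77 genes in the transcriptomes of the 8 stages (n = 4 pools each), large and small subunit apart, ordered by the change from GV to MII, from dark blue (low) to yellow (high). Most genes are dark at MII, in zygotes and at 2C and lighter from 4C on, and Mrpl48, Mrps25 and Mrpl24 run the other way between the 2-cell and 4-cell columns.

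Promoters are shown for 4 genes whose messages took different courses, described below: Mrpl12 and Mrpl52, low in the MII oocyte or the 2-cell embryo and high at the 4-cell stage, and Mrpl45 and Mrps14, whose GV and MII values lay close together or were higher at MII. Nuclear respiratory factor 1 (NRF1), the ETS-family factor GABPA and YY1 are transcription factors known for binding promoters of nuclear genes for mitochondrial proteins. The 250 bases before the start of transcription follow (RefSeq, build GRCm38.p6), 5′ to 3′, with matches to the NRF1 motif GCGCANGCG or the ETS motif CCGGAAG, on either strand, in capitals.

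Mrpl12 (chr11:120484387-120484636, plus strand): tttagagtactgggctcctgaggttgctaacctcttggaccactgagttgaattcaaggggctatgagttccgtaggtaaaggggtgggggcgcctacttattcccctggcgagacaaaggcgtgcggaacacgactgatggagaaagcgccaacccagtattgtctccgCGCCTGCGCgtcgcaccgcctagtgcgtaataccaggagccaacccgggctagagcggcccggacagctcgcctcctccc
Mrpl45 (chr11:97315466-97315715, plus strand): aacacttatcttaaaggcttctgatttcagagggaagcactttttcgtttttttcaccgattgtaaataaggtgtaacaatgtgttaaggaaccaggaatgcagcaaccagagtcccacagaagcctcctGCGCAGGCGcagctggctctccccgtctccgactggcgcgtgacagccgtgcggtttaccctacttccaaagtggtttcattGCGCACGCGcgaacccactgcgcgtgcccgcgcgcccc
Mrpl52 (chr14:54426659-54426908, plus strand): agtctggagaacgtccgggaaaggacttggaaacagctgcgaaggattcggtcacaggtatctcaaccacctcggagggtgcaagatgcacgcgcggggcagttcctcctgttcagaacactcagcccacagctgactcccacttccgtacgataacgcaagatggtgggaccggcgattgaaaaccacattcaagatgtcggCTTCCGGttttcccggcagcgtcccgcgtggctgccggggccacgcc
Mrps14 (chr1:160194965-160195214, plus strand): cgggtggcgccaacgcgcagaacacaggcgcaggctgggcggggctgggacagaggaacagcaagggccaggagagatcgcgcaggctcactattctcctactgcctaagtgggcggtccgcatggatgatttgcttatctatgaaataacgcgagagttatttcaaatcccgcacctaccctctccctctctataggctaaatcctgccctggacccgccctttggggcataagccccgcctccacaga

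In this window Mrpl12 has 1 NRF1 match, Mrpl45 has 2 and another just after the start, and Mrpl52 has 1 ETS match and another after the start, while Mrps14 has no match to either motif or to the YY1 motif AANATGGCG. Windows of 300 bases, 250 before and 50 after the start, were found for 68 of the 77 genes and for 27025 genes in all. The NRF1 motif was in 16 of the 68 (23.5%, against 7.03% of all windows), the ETS motif in 25 (36.8% against 9.93%) and the YY1 motif in 11 (16.2% against 2.76%). At least 1 of the 3 was in 42 (61.8% against 17.2%), and in 58.6% of 58 windows of cytosolic ribosomal protein genes. The median GC content of the windows was 58% for the mitochondrial set and 52.75% for all genes, and its part in these shares was not tested. Of the 50 genes with a window whose message fell from GV to MII, 22% had the YY1 motif, 18% the NRF1 motif, 40% the ETS motif and 62% any of them. Of the 18 that did not pass the test given below, 0% had the YY1, 38.9% the NRF1, 27.8% the ETS motif and 61.1% any. The motifs do not overlap one another in the shown windows, and a match is a run of letters, not a measured binding site.

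Changes between stages are given on the log2(CPM + 1) scale, on which low genes change less than their ratio, with the standard error (SE) of limma's moderated test over all 14642 genes tested. A gene is said to rise or fall when its Benjamini-Hochberg adjusted p was under 0.05 and its change at least 1.

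From the GV to the MII oocyte 57 of the 77 messages fell and 0 rose, where 25.3% of all genes tested fell. The median change was -2.60 for the mitoribosome genes and -0.11 for all genes. Of large-subunit genes 36 of 48 fell and of small-subunit genes 21 of 29, and of proteins of bacterial ancestry 34 of 46 and of those specific to mitochondria 22 of 30. In the cytosolic family 69 of 80 genes fell, with a median of -3.18. With edgeR on recovered reads 57 fell as well and 2 rose, Mrpl3 and Mrpl45, and with quantile normalization 53 fell and 1, Mrpl3, rose.

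Mrpl55, a mitochondria-specific protein of the large subunit, was at 148.1, 134.9, 140.6 and 126.4 CPM in the 4 GV pools and at 1.75, 2.90, 1.31 and 2.17 CPM in the 4 MII pools. It fell by 5.54 ± 0.158 (limma adjusted p = 8.63e-26), the largest fall of the set. Mrpl12, the stalk protein that is also known to bind mitochondrial RNA polymerase, was at 165.6, 168.3, 174.1 and 158.4 CPM at GV and 5.61, 2.45, 1.31 and 2.27 CPM at MII, a fall by 5.53 ± 0.212 (limma adjusted p = 2.78e-22). Both genes showed MII pools far under every GV pool.

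Mrps22, a small-subunit protein whose human variants cause mitochondrial disease, was among the more abundant GV messages, with 373, 365, 342 and 345 CPM, and was at 9.55, 13.3, 8.91 and 14.9 CPM at MII. It fell by 4.84 ± 0.195 (limma adjusted p = 1.04e-21). Mrpl11, of the stalk base where translation factors dock, fell by 4.21 ± 0.206, from 32 ± 5.53 (SD, n = 4) to 0.828 ± 0.609 CPM. Mrps12, homolog of the decoding protein S12, fell by 3.5 ± 0.172, and Mrpl58, a peptidyl-tRNA hydrolase built into the large subunit, by 4.66 ± 0.177. Mrps6 and Mrps30 fell by 2.95 and 2.74.

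Among the messages that did not pass the test, Mrps14, a small-subunit protein near the decoding site, was at 205, 165, 204 and 187 CPM at GV and 142, 177, 219 and 200 CPM at MII. The pools of both stages overlapped, and the difference was -0.06 ± 0.139 (limma adjusted p = 0.791). Mrpl18, Mrps23, Mrps5 and Mrps15 had differences between -0.10 and 0.08 as well. Mrpl3, a protein of the core of the large subunit, had 25.3, 35.1, 30.3 and 26.3 CPM at GV and 58.1, 56.4, 62.4 and 57.9 CPM at MII, so every MII pool was above every GV pool, and its difference of 0.99 ± 0.192 missed the size required. Mrpl45, which in the assembled ribosome lies at the exit of the peptide tunnel towards the inner membrane, had a difference of 0.74 ± 0.121, with 63.9 ± 5.27 CPM at GV and 108 ± 16.5 at MII (SD, n = 4), and Mrpl44, with a ribonuclease III fold, one of 0.58 ± 0.185. Mrpl10, the base of the stalk that carries Mrpl12, was 0.77 ± 0.209 lower at MII, which also missed the size.

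Mrps34, a small-subunit protein needed for its stability, was close to absent in the transcriptomes of the early stages. It read 0, 0.291, 0 and 0.149 CPM at GV, 0 in all 4 MII pools, 0.0948 CPM in 1 zygote pool and 0 in the other 3, and at most 0.385 CPM at the 2-cell stage, all of it within or near the limit of 3 reads. Its first clear level in the transcriptomes was at the 4-cell stage, with 17.5, 35, 19.1 and 24.3 CPM. Mrpl19 followed the same course, with a mean of 0.940 CPM at GV, 1.44 at MII, 1.12 in zygotes and 0.769 at the 2-cell stage, and 51.6 CPM at the 4-cell stage.

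From MII to the zygote 23 messages rose and 0 fell, where 5.79% of all genes rose. The median change was 0.59, against 0.00 for all genes, and 13 large-subunit and 10 small-subunit genes rose. Every zygote sum stayed under every GV sum. Mrpl48, mitochondria-specific and of the large subunit, was at 35.2, 35.1, 23.3 and 34.2 CPM at MII and 235, 244, 257 and 196 CPM in zygotes, a rise of 2.84 ± 0.153 (limma adjusted p = 4.19e-16). Mrps18b rose by 2.5 ± 0.139 and Mrps21, homolog of a small ribosomal protein of bacteria, by 2.21 ± 0.150. Mrps18a, Mrpl58, Mrps6, Mrpl11, Mrps18c, Mrps12 and Mrpl12 rose by 1.07 to 1.69, and each of these had also fallen at MII. The call of Mrpl12 was lost after quantile normalization and without the pools lettered B or C, and that of Mrps12 without those lettered C. With edgeR 31 rose and 0 fell, and over all genes 1401 rose in place of 848.

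Between the zygote and the 2-cell embryo the set divided: 15 messages rose, where 25.2% of all genes rose, and 11 fell, where 8.71% of all genes fell. The median change was 0.25, under the 0.37 of all genes, and the balance moved with the scaling, with 11 rises and 18 falls after quantile normalization and 15 and 16 with edgeR. Quantile normalization moved the median of all genes in this step by -0.45 and that of the set to -0.20. The cytosolic family, with 63 of 80 rising and 2 falling and a median of 2.07, took another course here. Large-subunit genes gave 11 rises and 6 falls and small-subunit genes 4 and 5.

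Mrps30 rose most, from 3.5, 2.51, 0.817 and 1.95 CPM in zygotes to 42.4, 26.5, 42.4 and 32.3 CPM in 2-cell embryos, by 3.58 ± 0.2 (limma adjusted p = 2.05e-17). Mrpl46 and Mrpl41, both specific to mitochondria, rose by 2.63 and 2.5, and Mrpl12 by 2.16. Mrpl47 was at 113, 89.8, 121 and 114 CPM in zygotes and 13.1, 17.7, 15.6 and 19.2 CPM in 2-cell embryos, a fall by 2.67 ± 0.167 (limma adjusted p = 4.34e-16). Mrpl21 fell by 2.5, Mrps31 by 2.40, Mrps5 by 2.08, Mrps36 by 1.94, Mrpl44 by 1.52, Mrps35 by 1.40, Mrpl1 by 1.39, Mrpl45 by 1.27, Mrpl32 by 1.13 and Mrps28 by 1.04. Several of these, among them Mrpl47, Mrpl21, Mrpl32, Mrps5, Mrpl44 and Mrpl45, had not passed the test as falls at MII. Of them Mrpl21 and Mrpl32 were still lower at MII, with 99.4 and 68.9 CPM per kb at GV and 52.2 and 38.1 at MII. The call of Mrps28 was lost without pool G or without pool H of the 2-cell stage.

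From the 2-cell to the 4-cell stage 64 messages rose and 4 fell, where 31.8% of all genes rose and 32.9% fell. The median change was 2.48 for the mitoribosome genes and 0.02 for all genes. Of large-subunit genes 42 of 48 rose and 3 fell, and of small-subunit genes 22 of 29 rose and 1 fell. Of proteins of bacterial ancestry 40 rose and 2 fell, and of those specific to mitochondria 24 rose and 2 fell. In the cytosolic family 78 of 80 rose and 0 fell, with a larger median of 4.71, a difference in size that was not tested.

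Mrpl52, mitochondria-specific, rose most: it was at 0.257, 1.15, 0.0846 and 0.368 CPM in 2-cell pools and 57.2, 102.6, 103.2 and 92.3 CPM in 4-cell pools, a rise of 5.95 ± 0.219 (limma adjusted p = 2.37e-23). Mrpl39, specific to mitochondria, had 4.56, 4.22, 4.65 and 3.39 CPM and then 194, 195, 178 and 208 CPM, a rise of 5.23 ± 0.181, and Mrpl20, a homolog of a bacterial assembly protein, 11.8, 10.1, 13.2 and 10.6 CPM and then 467, 403, 383 and 387 CPM, a rise of 5.05 ± 0.178. In each of the 3 the 4-cell pools lay far above all 2-cell pools. Mrps34 rose by 4.32 ± 0.214, Mrpl58 by 4.06 ± 0.177 and Mrps6 by 3.69 ± 0.162. The stalk proteins rose together except 1: Mrpl12, from 49.98, 28.66, 36.72 and 22.75 CPM to 467.7, 551.3, 433.8 and 469.5 CPM, by 3.81 ± 0.212, and Mrpl11 by 3.67 ± 0.206, while Mrpl10 fell by 1.19 ± 0.209. Mrpl44 and Mrps12 rose by 3.18 and 3.17, Mrps22 by 2.36, Mrps30 by 2.08 and Mrpl3 by 1.44.

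The 4 messages that fell here were Mrpl48, Mrps25, Mrpl24 and Mrpl10. Mrpl48 went from 441, 363, 289 and 389 CPM to 100.5, 84.0, 101.3 and 84.8 CPM, a fall by 1.98 ± 0.153 (limma adjusted p = 3.88e-14), and Mrps25, a small-subunit protein specific to mitochondria, from 152, 133, 113 and 120 CPM to 21.9, 37.2, 37.1 and 38.2 CPM, a fall by 1.94 ± 0.149 (limma adjusted p = 3.26e-14). Mrpl24 fell by 1.46 ± 0.189. All 4 share exonic bases with a gene on the opposite strand in GENCODE M21, and 25 of the 77 genes share such bases with a gene on either strand. The strand of counting is not given in the sources used here. Of the 25 genes with such an overlap 18 rose and 4 fell at this step, and of the other 52 genes 46 rose and 0 fell. The partners had levels of their own: Rab6a, which overlaps Mrpl48, had a mean of 92.5 CPM at the 2-cell and 37.6 at the 4-cell stage, Nr2c2, which overlaps Mrps25, 19.1 and 114 CPM, and Rrnad1, which overlaps Mrpl24, 5.62 and 15.2 CPM. How many reads could belong to the partner was not tested. Mrps6 shares exonic bases on its own strand with Slc5a3, which had means of 0.244 CPM at GV, 7.71 at the 2-cell and 15 at the 4-cell stage.

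**Figure D3:**
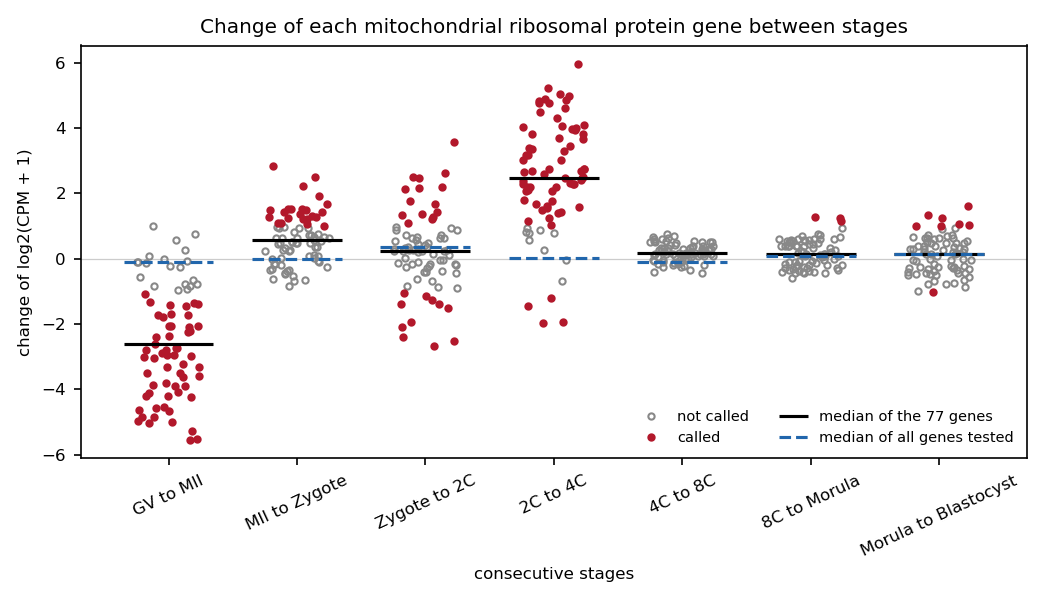
Change of each of the 77 genes on the log2(CPM + 1) scale between consecutive stages in the transcriptomes, 1 point a gene, with the genes that passed the test coloured and the median of the set and of all genes marked. Points lie below 0 from GV to MII (median -2.60), on both sides from zygote to 2-cell, and above 0 from 2-cell to 4-cell (median 2.48).

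After the 4-cell stage few genes of the set were called at any single step. The 4-cell stage was not tested against the blastocyst, and changes over several steps were larger for some genes. Mrps12 went from 81.0 CPM per kb at the 4-cell stage to 335.9 in blastocysts, and Mrps6 from 220.8 to 102.8. From the 4-cell to the 8-cell stage 0 genes were called, where 2.6% of all genes were called in either direction: 22 had an unadjusted p under 0.05, none of which reached the size required together with an adjusted p under 0.05, and edgeR called 0 too. The median difference was 0.17, against -0.11 for all genes. From the 8-cell stage to the morula 3 rose and 0 fell, where 8.18% of all genes rose: Mrps12 by 1.27, Mrpl24 by 1.25 and Mrpl36, homolog of the small bacterial protein L36, by 1.15. The call of Mrpl36 was lost without the pools lettered D.

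From the morula to the blastocyst 7 rose and 1 fell, where 18.8% of all genes rose and 7.97% fell. Without the pools lettered C 5 genes were called. Mrps5, of the small-subunit core, was at 57.8, 40.7, 42.5 and 53.6 CPM in morulae and 146, 136, 155 and 161 CPM in blastocysts, a rise of 1.61 ± 0.171 (limma adjusted p = 1.06e-09). Mrps36 rose by 1.35 and Mrps16 by 1.25, and the call of Mrps16 was lost with edgeR. Mrpl10 rose by 1.03, a call lost with quantile normalization, with edgeR and without the pools lettered B or C. Mrps18b fell by 1.02, from 136, 157, 200 and 166 CPM to 83.7, 82.1, 71.0 and 84.0 CPM, and lost that call without the pools lettered C and in CPM without ribosomal RNA. The balance depended on the scaling: edgeR gave 2 rises and 6 falls, quantile normalization 6 and 3, and CPM without ribosomal RNA, whose share was highest in blastocysts, 8 and 0.

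From the GV oocyte to the blastocyst 41 messages rose, where 38.2% of all genes rose, and 8 fell, where 30.9% of all genes fell. The median change was 1.35 against 0.32. Mrps34 rose by 5.66 ± 0.214, Mrpl19 by 5.65 ± 0.235 and Mrpl43, mitochondria-specific, by 4.80 ± 0.168. Mrpl48 fell by 2.93, Mrps22 by 2.44, Mrps25 by 2.19, Mrps31 by 2.06, Mrps36 by 1.84, Mrpl32 by 1.69, and Mrpl9 and Mrpl24 by 1.44 each. Mrps12 rose by 2.93, Mrps30 by 3.02, Mrps6 and Mrpl11 by 2.05 each, Mrpl3 by 1.87, Mrps18a by 1.70, Mrpl12 by 1.46 and Mrpl44 by 1.42. This comparison uses the same GV pools as that of GV with MII. In the cytosolic family 76 of 80 rose and 1 fell.

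The 3 Mrps18 genes encode variants of 1 bacterial protein, S18, that sit at different places of the mitoribosome, and all 3 messages passed the test in the same direction at 3 steps. Mrps18c was at 65.0, 55.3, 63.2 and 56.7 CPM at GV and 0.394, 1.11, 0.281 and 0.634 CPM at MII. Mrps18a, Mrps18b and Mrps18c fell by 4.83, 4.25 and 5.27 from GV to MII, rose by 1.69, 2.5 and 1.27 to the zygote, and rose by 3.96, 2.67 and 4.62 from the 2-cell to the 4-cell stage. At the 4-cell stage they had 147 ± 14.6, 111 ± 13.7 and 82.9 ± 15 CPM (SD, n = 4). From the GV oocyte to the blastocyst Mrps18a passed the test and the other two did not, with 69.8 ± 6.78 CPM at GV and 230 ± 22.8 in blastocysts, and no difference between the 3 was tested.

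Genes that work with the mitoribosome were read from lists beside it, in this and the next paragraph. Over all genes tested, 25.3% fell and 1334 of 14642 rose from GV to MII. From the 2-cell to the 4-cell stage 31.8% rose and 32.9% fell. No list was tested against these shares. Of 13 mitochondrial translation factors in the table, 7 fell and 1 rose from GV to MII. The elongation factor Tufm had a change of -3.92, the recycling factor Mrrf one of -2.62 and the initiation factor Mtif2 one of 1.03. From the 2-cell to the 4-cell stage 3 rose and 1 fell, with 5.33 for Tufm, 3.23 for Mtres1 and -2.01 for the release factor Mtrf1. Of 6 mitoribosome proteins with other symbols, 5 fell and 0 rose from GV to MII, with -3.82 for Aurkaip1, and 4 rose and 1 fell from the 2-cell to the 4-cell stage. Chchd1 had 4.12 there, Gadd45gip1 2.89 and Dap3, a small-subunit protein that binds GTP, -1.04. Of 27 assembly factors, 12 fell and 2 rose from GV to MII, with Mterf4 at -3.97, and 18 rose and 3 fell from the 2-cell to the 4-cell stage. Among them the methyltransferase Mrm2 rose by 4.25 and Nsun4, a methyltransferase that acts with Mterf4, had -5.09.

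Of 22 mitochondrial aminoacyl-tRNA synthetases 9 fell and 0 rose from GV to MII, with -3.11 for Sars2 and -2.94 for Rars2, and 14 rose and 1 fell from the 2-cell to the 4-cell stage, with 4.70 for Wars2 and -3.55 for Fars2. Of 13 genes for transcription and upkeep of mitochondrial DNA 4 fell and 1 rose from GV to MII, with -3.70 for the RNA polymerase Polrmt, and 10 rose and 0 fell from the 2-cell to the 4-cell stage, with 4.69 for the elongation factor Tefm. Of 9 nuclear factors for such genes 1, Nrf1, fell from GV to MII, with -1.38. From the zygote to the 2-cell stage 6 of these 9 rose and 1 fell, with 7.90 for Gabpa, 3.27 for Yy1 and -2.23 for Ppargc1b. Over all genes 25.2% rose and 8.71% fell at that step. Among the 9, 5 rose and 1 fell from the 2-cell to the 4-cell stage, with 3.87 for Pprc1 and -1.93 for Gabpb1. The genes of the mitochondrial genome were not analysed here.

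Along the gradients, a fraction's CPM is scaled to that fraction's own total, so values show which share of each fraction a message took. Fractions 6 to 10 are called heavy and 1 to 5 light. The CPM-weighted mean fraction number of a gene, between 1 and 10, gives its position. The median position of the 77 genes was 5.19 ± 0.128 (SD over 3 gradients) at GV, 4.48 ± 0.482 at MII, 4.86 ± 0.188 in zygotes and 4.81 ± 0.362 at the 2-cell stage. It was 5.61 ± 0.354 at the 4-cell stage, 5.93 ± 0.136 at the 8-cell stage, 5.84 ± 0.304 in morulae and 5.66 ± 0.168 in blastocysts. The median over 15528 genes was 5.69 at GV, 5.32 at MII, 5.30 in zygotes, 4.99 at the 2-cell stage, 4.75 at the 4-cell stage, 5.54 at the 8-cell stage, 5.68 in morulae and 5.34 in blastocysts. The mitoribosome genes thus lay to the light side of the median gene at the first 4 stages and to its heavy side after. At the 2-cell stage and in morulae the difference was less than the SD over gradients, and these differences were not tested. The sets differ in level: at the 4-cell stage all 77 genes had a transcriptome mean of at least 10 CPM, against 6645 of the 15528. In fraction 1 of the 4-cell gradients 1 read was worth 2.35 to 5.61 CPM. The part of level and depth in these positions was not tested. The cytosolic ribosomal protein genes had 4.93 at GV, 4.07 at MII, 5.68 at the 2-cell, 6.15 at the 4-cell stage and 4.93 in blastocysts.

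**Figure D4:**
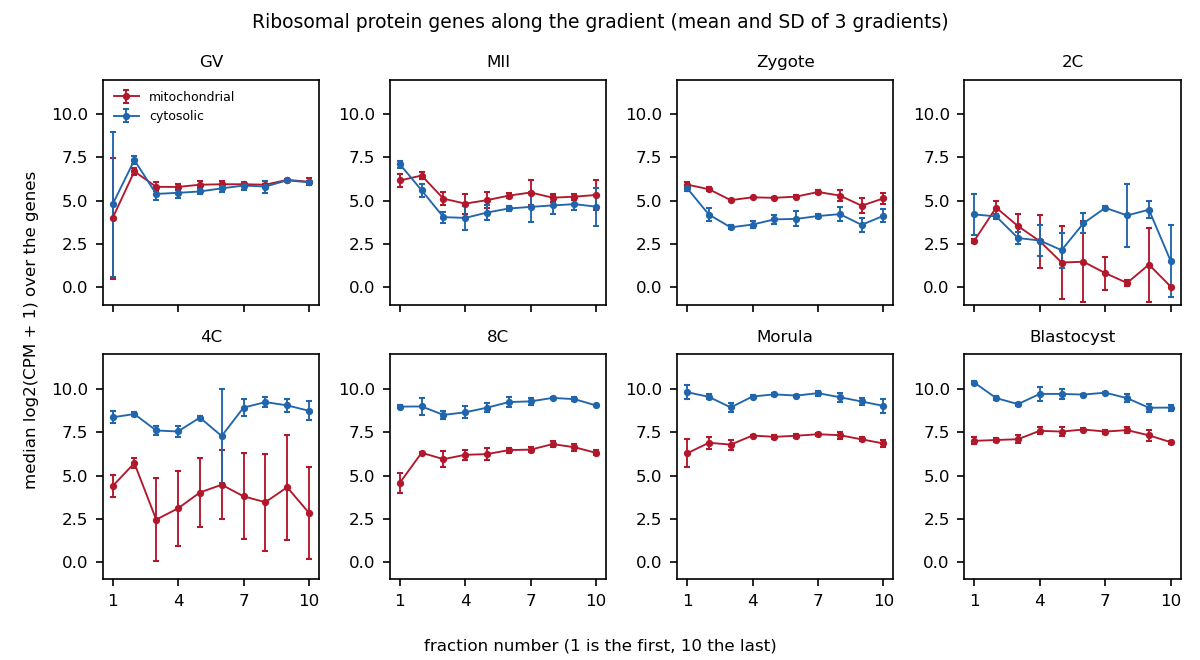
Median log2(CPM + 1) of the 77 mitochondrial (red) and 80 cytosolic (blue) ribosomal protein genes in fractions 1 to 10 of each stage, with points and bars for the mean and SD of 3 gradients. The mitochondrial median is 6.45 in fraction 2 of MII and 5.33 in fraction 10, falls from 4.60 to 0.04 between fractions 2 and 10 at 2C, and stays between 6.92 and 7.66 in blastocysts.

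Summed over the set, GV gradients held 20421 ± 1569 CPM in fraction 2 (SD, n = 3) and 7587 to 10897 CPM in the means of the other fractions. At MII the means were 19679 CPM in fraction 1 and 13231 in fraction 2, against 4373 to 6541 in fractions 3 to 10. In 2-cell gradients the means stayed between 2683 and 4878 CPM in all fractions, and in blastocysts between 13505 and 21794 CPM. Many single values were 0 in the middle stages: in fractions 2 to 10 the share of values at 0 was 0.866% at GV, 3.94% at MII, 36.6% at the 2-cell, 15.8% at the 4-cell and 6.59% at the 8-cell stage, and 0% in blastocysts. Over all genes it was 54.6% at the 2-cell and 56.3% at the 4-cell stage. Of the cytosolic ribosomal protein genes it was 23.5% and 1.99%.

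Over the 24 gradients the genes that lay furthest to the light side were Mrps21 (mean fraction 3.94 ± 0.876, SD over 24 gradients), Mrpl13 (4.07 ± 1.09) and Mrpl33 (4.10 ± 1.02), and to the heavy side Mrpl3 (7.17 ± 0.976), Mrpl44 (6.28 ± 1.18) and Mrps31 (6.14 ± 1.98). These positions varied with the stage: Mrpl13, of the large-subunit core, had a mean fraction of 5.76 at GV, 2.93 at the 4-cell, 2.88 at the 8-cell stage and 4.35 in blastocysts.

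The heavy and the light mean of the same gradient were then compared over 15172 genes. At GV 0 of the 77 genes were called, where 0.0725% of all genes were called in either direction, and 7 had an unadjusted p under 0.05 in limma. The median difference, heavy minus light, was -0.23, against 0.08 for all genes, and turned to 0.25 when log2 values were averaged over fractions. A fit of GV alone called 2. Fraction 1 enters the light means and the positions above. In GV gradients A and B it held 0.0102 and 0.0231 M reads, so 1 read there was worth 95.5 and 42.2 CPM. Of the values of the 77 genes in fraction 1 at GV, 36.4% were 0. The part of this noise in the GV results was not tested.

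Of the calls for named genes in what follows, 0 of 39 for heavy against light and 0 of 11 for shifts between stages held under every alternative setting.

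At MII 10 genes were lower in the heavy fractions and 0 higher, where 1.52% of all genes were lower, with a median of -0.80 against -0.06. Mrpl54, mitochondria-specific, had heavy means of 81.5, 28.4 and 52.4 CPM in gradients A, B and C and light means of 614, 343 and 403 CPM, a difference of -3.12 ± 0.416 (limma adjusted p = 3.80e-06). Mrpl23, a core protein near the peptide exit, had 91.7, 46.9 and 72.1 CPM against 698, 466 and 538 CPM (-3.03 ± 0.536), and Mrps21 94.1, 27.9 and 66.1 CPM against 397, 260 and 336 CPM (-2.52 ± 0.414). In each of these 3 genes every light mean was above every heavy mean. Mrpl58 was lower in the heavy fractions by -1.82. Leaving out gradient A, B or C of every stage gave 5 to 8 genes in place of 10, and with log2 values averaged over fractions 1 was called and all 4 genes named here lost their call. A fit of MII alone called 21.

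In zygotes 4 genes were lower in the heavy fractions and 0 higher, where 0.87% of all genes were lower, and the median was -0.47 against -0.04. Mrps24 had heavy means of 52.5, 19.3 and 43.9 CPM and light means of 187, 167 and 232 CPM (-2.41 ± 0.414, limma adjusted p = 0.000329), Mrpl54 a difference of -2.09 and Mrps7 one of -1.20. Between 0 and 2 were called when gradient A, B or C was left out, and the 3 named genes lost their call with log2 values averaged over fractions. A fit of zygotes alone called 8.

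At the 2-cell stage 6 genes were higher in the heavy fractions, where 6.43% of all genes were higher, and 12 lower, where 11.8% were lower. Mrps35, small subunit and mitochondria-specific, had heavy means of 37.7, 15.9 and 32.7 CPM and light means of 1.19, 3.75 and 2.46 CPM (3.09 ± 0.737), Mrpl20 a difference of 2.97 and Mrps15 one of 2.13. Mrpl51, Mrps26 and Mrps16 were higher by 1.05, 1.04 and 1.54, and Mrpl51 and Mrps26 lost their call with the gradient as a block. Mrpl35 (-3.60), Mrpl58 (-2.65), Mrpl23 (-2.38) and Mrps18a (-1.51) were lower. At the 4-cell stage 11 were higher, where 3.4% of all genes were higher, and 9 lower, where 12.9% were lower, and quantile normalization gave 13 and 5. Mrps31 (3.52), Mrps34 (3.10), Mrpl27 (2.73), Mrpl11 (2.51) and Mrps18b (1.35) were higher there, and Mrps2 (-3.24), Mrpl30 (-2.99), Mrpl16 (-2.95), Mrps15 (-2.75), Mrps35 (-2.74), Mrpl42 (-2.28), Mrpl9 (-1.93), Mrpl13 (-1.83) and Mrps30 (-1.83) lower. The value for Mrps31 rested on unequal gradients, with heavy means of 88.3, 0.0391 and 22.2 CPM against light means of 0.268, 0.115 and 0 CPM. Without gradient A, B or C 12 to 16 were called at the 2-cell and 7 to 15 at the 4-cell stage, and 0 at both with a fit of that stage alone.

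In the last 3 stages few genes were called in the fit of all stages. At the 8-cell stage Mrpl23 was higher in the heavy fractions by 1.80, where 2.43% of all genes were higher, and Mrpl13 lower, where 6.62% were lower, with heavy means of 48.6, 68.7 and 78.9 CPM against light means of 285, 291 and 290 CPM (-2.15 ± 0.534). In a fit with the gradient as a block 4 were higher and 1 lower. In morulae 2 were higher, where 1.64% of all genes were higher: Mrpl28, with 912, 1161 and 920 CPM against 286, 456 and 360 CPM (1.46 ± 0.368), and Mrpl12, with 1447, 1757 and 1482 CPM against 537, 753 and 613 CPM (1.31 ± 0.376). Mrpl42 was lower by -1.94, where 4.17% were lower. In blastocysts Mrpl4, with 497, 533 and 466 CPM against 124, 214 and 227 CPM, was higher (1.45 ± 0.388), where 0.633% of all genes were higher, and Mrpl42 (-2.02) and Mrpl33 (-1.81) were lower, where 2.11% were lower. After quantile normalization 0 genes were higher in morulae and blastocysts and 3 lower in each. The median difference was 0.50 at the 8-cell stage, 0.39 in morulae and 0.21 in blastocysts, against 0.00, 0.00 and -0.02 for all genes. Leaving out gradient A, B or C gave 0 to 5 genes at the 8-cell stage, 0 to 1 in morulae and 0 in blastocysts. A fit of each stage alone called 1 at the 8-cell stage, but 13 in morulae and 11 in blastocysts.

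The change of this difference between consecutive stages was tested next and is called a shift. Because each fraction is scaled to its own total, a shift is a change of relative share. It cannot tell movement of the message from a change of other messages in the fractions. From GV to MII 1 gene passed, where 0.112% of all genes shifted to the light side: Mrpl57, mitochondria-specific, had heavy means of 101, 80.3 and 111 CPM and light means of 113, 71.3 and 107 CPM at GV, and 69.8, 44.8 and 99.5 against 356, 258 and 274 CPM at MII, a shift of -2.11 ± 0.433 (limma adjusted p = 0.0205), and 0 passed without gradient A, B or C. With the gradient as a block 2 passed. From MII to the zygote 0 passed, where 0.0198% of all genes passed in either direction, and 4 had an unadjusted p under 0.05. From the zygote to the 2-cell stage 4 shifted to the heavy side, where 1.73% of all genes did, with Mrps35 at 3.48 and Mrpl20 at 2.56, and Mrpl35 shifted to the light side by -3.13, where 2.91% did, a call lost with the gradient as a block. Between 0 and 4 passed without gradient A, B or C.

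From the 2-cell to the 4-cell stage 12 genes shifted to the heavy side, where 4.52% of all genes did, and 3 to the light side, where 7.22% did. Mrpl27, a homolog of bacterial L27, which reaches towards the peptidyl transferase centre, had heavy means of 0.0323, 0 and 0.0196 CPM and light means of 3.81, 2.06 and 3.27 CPM at the 2-cell stage, and heavy means of 53.6, 52.7 and 46.4 CPM against 14.3, 1.69 and 10.5 CPM at the 4-cell stage, a shift of 4.70 ± 0.730 (limma adjusted p = 3.56e-05). Mrps31 had 5.36, Mrpl58 2.92 and Mrps18a 2.52. Mrps35 had -5.83, Mrps15 -4.88 and Mrpl20 -2.54. Leaving out gradient A, B or C gave 5 to 13, and a fit of these stages alone 0. For the later steps 0 genes passed, where 2.47% of all genes passed in either direction from the 4-cell to the 8-cell stage, 0.534% from the 8-cell stage to the morula and 0.0198% from the morula to the blastocyst. At an unadjusted p under 0.05 in limma there were 9, 0 and 0, and with the gradient as a block 1 passed from the 4-cell to the 8-cell stage.

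The level in the heavy fractions alone was compared between stages over 14524 genes. From GV to MII 13 genes fell, where 3.22% of all genes fell, and 0 rose, with a median of -0.79. Mrpl11 had 90.1, 75.4 and 91.9 CPM in the heavy fractions of the 3 GV gradients and 1.27, 2.65 and 6.88 CPM at MII, a fall by 4.42 ± 0.846 (limma adjusted p = 0.00312). Mrpl14 went from 424, 254 and 492 CPM to 30.9, 15.1 and 78.8 CPM, and Mrpl12 from 638, 452 and 554 CPM to 93.1, 39.7 and 176 CPM, falls by 3.45 and 2.63, and Mrps18a fell by 2.35. Without gradient A, B or C 5 to 7 fell. From MII to the zygote 1 rose, where 0.84% of all genes rose: Mrpl55, from 27.8, 23.9 and 28.4 CPM to 84.7, 92.3 and 100 CPM, by 1.75 ± 0.366, a call lost without gradient A, B or C.

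From the zygote to the 2-cell stage 5 rose, where 5.1% of all genes rose, and 23 fell, where 15.7% fell, with a median of -1.26 against -0.51 for all genes. Mrpl49 rose by 3.52, Mrpl20 by 1.91, Mrpl13 by 1.89, Mrps26 by 1.58 and Mrps7 by 1.21. All 5 of these rises lost their call with log2 values averaged over fractions and in a fit of these stages alone. Mrps31 fell by 5.27, Mrps36 by 4.73, Mrpl44 by 4.01, Mrpl58 by 3.21, Mrps18b by 1.97 and Mrps18a by 1.65. From the 2-cell to the 4-cell stage 40 rose, where 15.6% of all genes rose, and 5 fell, where 22.3% fell, with a median of 1.95 against -0.06. Mrpl27 rose by 5.67, Mrpl22 by 5.53, Mrps34 by 4.94, Mrpl11 by 4.26, Mrpl12 by 3.94, Mrpl58 by 3.38, Mrps18c by 2.87, Mrps30 by 2.77, Mrps18a by 1.98 and Mrps18b by 1.15. The 5 falls were Mrps27 by 5.89, Mrps35 by 4.60, Mrps25 by 3.76, Mrpl48 by 3.44 and Mrpl24 by 3.05. So 3 of the 4 messages that fell in the transcriptome at this step also fell in the heavy fractions. Those 3 calls, of Mrps25, Mrpl48 and Mrpl24, were lost in a fit of these stages alone. The rises of Mrpl22, Mrpl11, Mrpl58, Mrps30, Mrps18a, Mrps18b and Mrps18c lost their call there too. Leaving out gradient A, B or C gave 14 to 20 calls at the first and 34 to 45 at the second of these steps.

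Mrps27, a small-subunit protein with pentatricopeptide repeats, had 62.5, 119 and 95.4 CPM in the heavy fractions of the 2-cell stage, 0.107, 2.00 and 0.0450 CPM at the 4-cell stage and 30.6, 50.9 and 34.3 CPM at the 8-cell stage, while the 4-cell transcriptomes had a mean of 31.1 CPM for this gene. The light fractions of the 4-cell gradients had 0.133, 3.38 and 0 CPM, so the message was near 0 on both sides. From the 4-cell to the 8-cell stage 6 genes rose, where 5.6% of all genes rose, among them Mrps27 by 4.68 and Mrpl30 by 3.88, with 2 to 8 called without gradient A, B or C. From the 8-cell stage to the morula 2 rose, where 5.42% rose, Mrps35 by 3.79 and Mrps16 by 1.70, with 0 to 1 called without gradient A, B or C. From the morula to the blastocyst 0 were called, where 0.0757% of all genes were called in either direction, and 1 had an unadjusted p under 0.05.

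Mitoribosome proteins are short. The median coding length was 588 nt over the 77 genes (435 and 849 nt at the quartiles), against 1386 nt over 13701 genes. A longer reading frame can hold more ribosomes, and position was therefore set beside length. Across the genes, Spearman's rho between coding length and mean fraction was 0.17 at GV, 0.51 at MII, 0.36 in zygotes, 0.19 at the 2-cell, 0.07 at the 4-cell and 0.31 at the 8-cell stage, and 0.68 in morulae and 0.67 in blastocysts (75 to 77 genes a stage). Within single gradients it was 0.62 to 0.65 in morulae and 0.54 to 0.68 in blastocysts. Over all genes rho was 0.17 at GV and 0.21 at MII, and -0.14 in morulae and -0.15 in blastocysts. These are descriptions across genes of the same libraries, which share depth and amplification, and genes are not independent replicates.

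The same pattern shows in groups of the set by length. In morulae the median mean fraction was 5.44 ± 0.218 (SD over 3 gradients) for the 26 shortest reading frames (195 to 498 nt), 5.81 ± 0.399 for the 25 of middle length (501 to 753 nt) and 6.48 ± 0.192 for the 26 longest (756 to 1326 nt). In blastocysts it was 5.18 ± 0.101, 5.73 ± 0.188 and 6.19 ± 0.149, and at MII 3.92, 4.19 and 5.07. At GV it was 5.28, 4.98 and 5.47. In every gradient of morulae and blastocysts the longest group lay above the shortest.

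**Figure D5:**
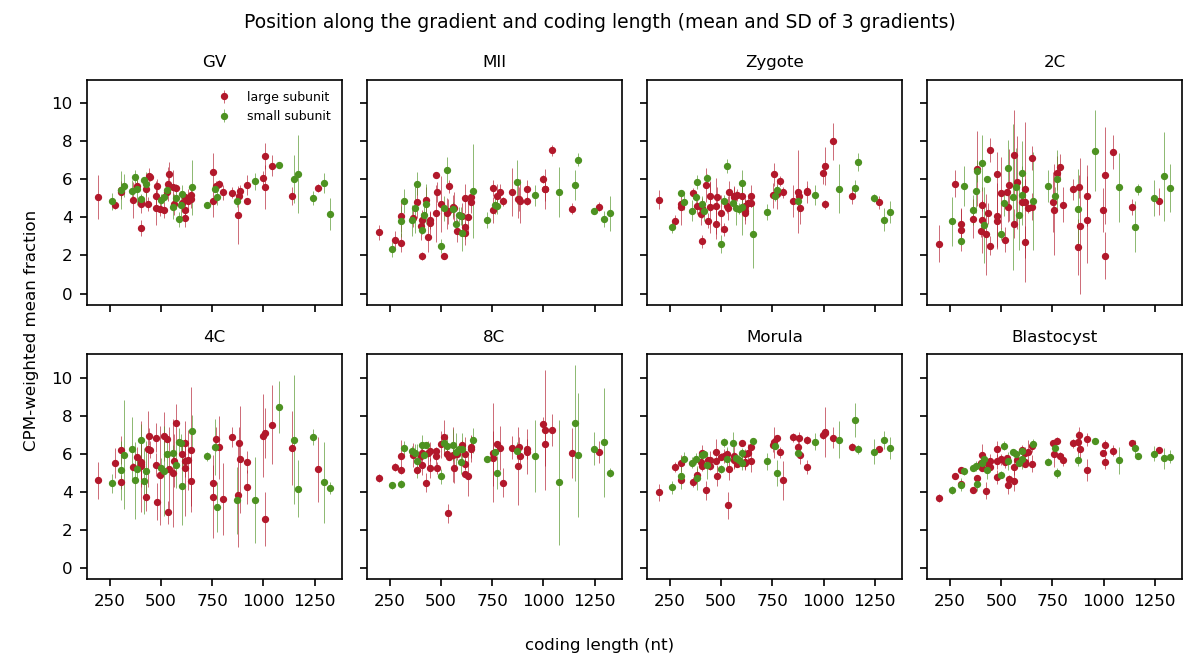
Coding length (nt) of each of the 77 genes against its CPM-weighted mean fraction in each of the 8 stages, 1 point a gene, with the mean and SD of 3 gradients and the subunits in red (large) and green (small). The points rise with length in morulae (rho 0.68) and blastocysts (rho 0.67) and less so at GV (rho 0.17).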

How the data were processed

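The authors deposited 1 table of CPM values for 15854 gene symbols and 272 libraries. Per the submitters' processing notes, Trim Galore 0.6.7, FastQC, HISAT2 2.2.1, featureCounts 2.0.1, edgeR and build GRCm39 were used; whether counting used strand is not given in the sources used here. Because symbols repeat with identical values, 38 columns sum above what CPM allows. In the 9 with the largest sums the deposited values were recorded as a signal, although they step like CPM, and were treated as such. Of 159 such symbols in identical groups 1 per group was kept, which left 15771 symbols and touched none of the 77 genes. Every value was a whole multiple of what 1 read is worth, within 0.05 reads, in all 272 libraries, and depth is the sum of these reads. Replicates were compared by chi-square before averaging: the lowest value per degree of freedom was 5.08 over 48 transcriptome pairs and 2.55 over 240 fraction pairs, so no pair was counted as 1.

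The test was limma 3.58.1 in R 4.3.3 (lmFit, eBayes with trend) on log2(CPM + 1), for genes with a CPM of at least 1 in 4 transcriptomes or 3 gradient means. Heavy and light values are means of fractions 6 to 10 and 1 to 5. All stages shared 1 fit per comparison type. A call needs a Benjamini-Hochberg adjusted p under 0.05 over all genes tested and a change of at least 1. Heavy and light means of 1 gradient come from the same lysate: their deviations from the stage means correlated by 0.00776 to 0.253 over same-letter pairs. The 2-cell transcriptome columns carry the letters E to H and were used without a pairing. Members, lists and tests were chosen with earlier results of these data known. Named genes are the largest called changes of each comparison, genes of known role (the Mrps18 genes, Mrpl3, Mrpl10, Mrpl11, Mrpl12, Mrpl44, Mrpl58, Mrps6, Mrps12, Mrps22, Mrps30, Mrps34), the highest and lowest in level and position, and genes called against the majority; other genes were named after their values were seen. Lengths and exon overlaps are from GENCODE M21 (coding and transcript length of the transcript with the longest reading frame), and promoters from RefSeq GRCm38.p6, so no coordinate was mixed with the authors' build. Alternatives were edgeR 4.0.16 on recovered reads, quantile normalization, CPM without ribosomal RNA, a pseudocount of 0.1, no filter, mean of log2 values, fractions 7 to 10 against 1 to 4, a fit of the compared groups alone, the replicate block and leaving out each replicate. The scripts were tested on simulated data.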

Additional observations from a re-analysis of the deposited data

Results flagged for a closer look

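In the transcriptomes, 12 of 120 groups of 4 pools held 1 pool that lay apart from the other 3 by Dixon's 95% criterion (0.829 for 4 samples), where chance gives about 1 in 20 groups. Mrps6 had a lowest pool of 1.36 CPM at MII and of 4.39 CPM in zygotes, and a highest pool of 16.1 CPM at the 2-cell stage. At the 2-cell stage Mrpl3 had a highest pool of 81.7 CPM, Mrps22 one of 35.8 CPM, and Mrpl44 a lowest pool of 6.41 CPM. Mrps34 was at 0.0948 CPM in 1 zygote pool and 0 in the others. Mrps18b had a lowest pool of 90.5 CPM at the 4-cell stage and of 71.0 CPM in blastocysts. In morulae Mrps18c had a highest pool of 123 CPM and Mrpl58 a lowest of 172 CPM. Mrpl10 had a highest pool of 61.8 CPM in blastocysts.

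The difference between heavy and light fractions itself differed between consecutive stages for the following genes, by the interaction term of limma. From GV to MII it was -2.11 for Mrpl57. From the zygote to the 2-cell stage it was 3.48 for Mrps35, 2.56 for Mrpl20 and -3.13 for Mrpl35. From the 2-cell to the 4-cell stage it was 5.36 for Mrps31, 4.70 for Mrpl27, 2.92 for Mrpl58, 2.52 for Mrps18a, -5.83 for Mrps35, -4.88 for Mrps15 and -2.54 for Mrpl20. At the 2-cell stage 36.6% of the values of the 77 genes in fractions 2 to 10 were 0, and the part of these zeros in the shifts was not tested.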

How the results depend on the processing

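In the transcriptomes each count of called genes, both directions together, stayed within 1.5 times its value under the other scalings, the other pseudocount, no filter, edgeR, the fit of the compared groups alone and the replicate block. By direction they moved more: 7 rises and 1 fall in the step to the blastocyst became 2 and 6 with edgeR, and 15 and 11 in the step to the 2-cell stage 11 and 18 with quantile normalization. Over all genes edgeR gave 2289 rises and 2303 falls in the step to the blastocyst, in place of 2750 and 1167. Quantile normalization gave 2189 and 2529 in the step to the 2-cell stage, in place of 3684 and 1275. Of 84 results for genes named in the transcriptomes, 76 kept direction and call in every alternative. Of those named for heavy against light, for the shifts and for the heavy fractions between stages, 0 of 39, 0 of 11 and 7 of 35 did. No named value reversed. Counts of called genes among the 77, in either direction, moved as follows, and the cause was not tested. The shares of all genes called under the same settings are not given beside them, so a change of the set is not told apart from a change of all calls. A step between stages is named by the stage it leads to. With only the compared groups in the fit, heavy against light gave 2 at GV, 21 at MII, 8 in zygotes, 0 at 2-cell, 0 at 4-cell, 1 at 8-cell, 13 in morulae and 11 in blastocysts, the shifts 2 for the MII step, 0 for the 2-cell step and 0 for the 4-cell step, and the heavy fractions 38 for the MII step, 9 for the zygote step, 9 for the 2-cell step, 18 for the 4-cell step, 0 for the 8-cell step and 13 for the morula step. With the mean of log2 values over fractions, heavy against light gave 1 at MII, 13 at 4-cell and 7 at 8-cell, the shifts 0 for the MII step, 1 for the 2-cell step and 2 for the 8-cell step, and the heavy fractions 22 for the MII step, 3 for the zygote step, 55 for the 2-cell step, 39 for the 8-cell step and 13 for the morula step. With fractions 7 to 10 and 1 to 4, heavy against light gave 1 at GV, 5 at 8-cell, 6 in morulae and 5 in blastocysts, and the heavy fractions 3 for the zygote step and 1 for the morula step. Quantile normalization gave 8 for heavy against light in zygotes, and for the heavy fractions 24 for the MII step, of them 4 higher, 8 for the zygote step and 2 for the 8-cell step. A pseudocount of 0.1 gave 2 in zygotes and 1 in blastocysts for heavy against light and a shift of 1 gene for the 8-cell step. For the heavy fractions of the zygote step no filter gave 3 and CPM without ribosomal RNA 2. The replicate block, with the gradient as a pair, gave 5 at 8-cell for heavy against light and 2 and 1 for the shifts of the MII and 8-cell steps, and moved no other count by over 1.5 times. It ended the 2-cell calls of Mrpl51 and Mrps26 and the shift of Mrpl35, and no other call of a named gene. Between stages, letters name no pair: same-letter deviations correlated by -0.178 to 0.195 in transcriptomes and -0.113 to 0.101 in heavy fractions.

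Without 1 replicate letter at a time, the transcriptomes gave 5 to 10 for the blastocyst step. Heavy against light gave 5 to 8 at MII, 0 to 2 in zygotes, 7 to 15 at 4-cell, 0 to 5 at 8-cell, 0 to 1 in morulae and 0 in blastocysts. The shifts gave 0 for the MII step, 0 to 4 for the 2-cell step, 5 to 13 for the 4-cell step and 0 to 1 for the 8-cell step, and the heavy fractions 5 to 7 for the MII step, 0 for the zygote step, 14 to 20 for the 2-cell step, 2 to 8 for the 8-cell step and 0 to 1 for the morula step. The median difference of heavy against light at 4-cell, -0.11, was 0.28 after quantile normalization, 0.13 with fractions 7 to 10 and 1 to 4 and 0.50 without gradient A, and at GV, -0.23, it was 0.25 with the mean of log2 values. Quantile normalization moved the median of all genes most in the heavy fractions, by 0.50 for the 2-cell step and -0.35 for the 8-cell step.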
